A study of Mus musculus with 30 samples.

Results

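The genes described here are 37 mouse genes of the unfolded protein response and the integrated stress response, out of 54532 genes in the deposited count table. They were taken by name, with no limit on level or change but with earlier results of these data known, and fall into 4 groups by role: 16 ATF4 and amino acid genes, 6 genes of eIF2alpha phosphorylation and endoplasmic reticulum (ER) stress sensing, 11 ER chaperone and folding genes, and 4 genes of ER-associated degradation. All 37 were found in the table, and 36 passed the filter on low counts and were tested beside 12393 genes in all. The cells were dendritic cells grown with GM-CSF from the marrow of wild-type (WT) mice or of mice deficient in Nlrx1 (KO), a mitochondrial NOD-like receptor. Live conidia (spores) of the mould Aspergillus fumigatus, strain AF29, were added to all but the 0 h cells, which were taken before challenge. RNA was sampled at 0, 3, 6, 9 and 12 h in both genotypes, which gave 10 groups of 3 libraries. No cells incubated without conidia were analysed here at the later times, so hours in culture and hours with conidia cannot be told apart. The labels give no mouse strain, age or sex and do not say whether replicates came from separate mice, so any p-value reflects the spread among these libraries, which may be technical.

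The ER folds secreted and membrane proteins, and a surplus of unfolded protein there is sensed by 3 membrane proteins, encoded by Eif2ak3 (PERK), Ern1 (IRE1) and Atf6. Ern1 acts by splicing Xbp1 mRNA, and the XBP1 and ATF6 proteins induce chaperones, folding enzymes and degradation factors. PERK and other kinases phosphorylate eIF2alpha, which lowers general translation and favours translation of Atf4 mRNA; ATF4 in turn induces genes for amino acid synthesis, uptake and tRNA charging. In dendritic cells this machinery handles cytokines and antigen-presenting molecules. Both Atf4 translation and Xbp1 splicing act after the mRNA is made, so gene counts do not report them.

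Promoter sequences were searched because chaperone genes and ATF4 target genes are known for separate response elements. The shares of these genes that hold an element are therefore a description and no test. RefSeq windows on GRCm38.p6, from 250 bases before to 50 bases after the start of a gene, were at hand for 32 of the 37 genes and for 27025 genes in all. Slc7a5, Nars, Ppp1r15b, Atf6 and Manf had no entry. The ER stress response element (ERSE, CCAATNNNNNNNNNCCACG, either strand) was in the window of 37 genes, or 0.14% of all genes in the table. Of the genes described here 7 held it: 6 of the 10 chaperone and folding genes with a window, and the degradation gene Syvn1. The matches are shown in the direction that reads CCAAT first, with the fixed letters in capitals.
Hspa5, chr2:34772025-34772043, plus strand: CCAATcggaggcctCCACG
Hsp90b1, chr10:86705638-86705656, minus strand: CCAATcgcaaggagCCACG
Hsp90b1, chr10:86705533-86705551, plus strand: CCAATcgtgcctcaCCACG
Calr, chr8:84847075-84847093, plus strand: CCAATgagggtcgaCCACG
Canx, chr11:50325800-50325818, minus strand: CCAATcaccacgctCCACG
Pdia6, chr12:17266491-17266509, plus strand: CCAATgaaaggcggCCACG
Creld2, chr15:88819520-88819538, minus strand: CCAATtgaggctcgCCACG
Syvn1, chr19:6046532-6046550, plus strand: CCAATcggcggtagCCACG
The match nearest to a start was that of Syvn1, 44 to 26 bases before it, and the farthest was the upstream match of Hsp90b1, 212 to 194 bases before it. A related element, ERSE-II (ATTGGNCCACG, either strand), was in 0.04% of all genes and in Herpud1 among the genes described here. It is shown with 4 bases on each side.
Herpud1, chr8:94386373-94386391, plus strand: gctgATTGGgCCACGttgg
The UPRE (TGACGTGG, either strand), which shares the letters CCACG in reverse with both elements, was in 0.71% of all genes and in 0 of the 32 windows.

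The CEBP-ATF element (TGATGNAA, either strand), to which ATF4 binds with C/EBP proteins, was in 4.51% of all genes. It was in 5 of the 14 ATF4 and amino acid genes with a window and in Herpud1. No chaperone gene and no gene of the eIF2alpha and sensor group held it in the window searched. Matches in Chac1, Trib3, Asns, Gars and Herpud1 are shown with 10 bases on each side and the fixed letters in capitals.
Chac1, chr2:119351039-119351066, minus strand: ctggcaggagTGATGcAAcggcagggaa
Trib3, chr2:152344029-152344056, plus strand: cccgcccggcTGATGtAAacctgagcta
Asns, chr6:7693215-7693242, minus strand: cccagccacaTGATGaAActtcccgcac
Gars, chr6:55037961-55037988, minus strand: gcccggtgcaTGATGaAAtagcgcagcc
Herpud1, chr8:94386307-94386334, minus strand: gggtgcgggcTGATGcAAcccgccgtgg
Of those shown, the match of Trib3 lies just after the start and the others lie before it. A match is a run of letters and no evidence of binding.

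Longer context is given for Calr, Canx and Gars, the 3 genes of the chaperone and ATF4 groups that held an element and passed the test in WT cells at 12 h against 0 h. Each run is the 250 bases before the start, on the strand of the gene. Capitals mark the fixed letters of the ERSE in Calr, read here on the opposite strand, and in Canx, and those of the CEBP-ATF element in Gars, also read on the opposite strand.
Calr, chr8:84846932-84847181, minus strand: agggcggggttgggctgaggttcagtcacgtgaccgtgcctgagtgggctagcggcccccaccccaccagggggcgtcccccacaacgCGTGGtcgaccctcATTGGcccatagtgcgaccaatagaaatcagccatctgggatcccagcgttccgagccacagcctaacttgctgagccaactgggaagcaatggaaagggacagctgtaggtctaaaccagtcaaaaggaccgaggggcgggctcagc
Canx, chr11:50325674-50325923, minus strand: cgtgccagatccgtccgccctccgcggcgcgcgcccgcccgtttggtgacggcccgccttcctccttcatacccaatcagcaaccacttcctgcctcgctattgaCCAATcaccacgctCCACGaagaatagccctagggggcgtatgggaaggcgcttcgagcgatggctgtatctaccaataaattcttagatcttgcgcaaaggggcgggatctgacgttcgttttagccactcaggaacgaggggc
Gars, chr6:55037751-55038000, plus strand: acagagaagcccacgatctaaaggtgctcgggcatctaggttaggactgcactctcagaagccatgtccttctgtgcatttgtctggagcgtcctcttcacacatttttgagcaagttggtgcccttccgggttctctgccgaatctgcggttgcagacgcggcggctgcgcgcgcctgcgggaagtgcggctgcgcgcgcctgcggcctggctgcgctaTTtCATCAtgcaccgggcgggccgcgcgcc

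Library totals ran from 1722384 to 3509429 counts. Nlrx1 had 13 to 46 counts in the 15 WT libraries and 0 to 14 in the 15 KO libraries, and its fitted level was lower in KO over the 5 times (log2 fold change -1.87 ± 0.28 standard error, SE; adjusted p = 1.71e-05). Marker genes of dendritic cells summed to between 2608 and 3687 CPM (counts divided by the library total after TMM scaling, times 1000000) and those of macrophages to between 1452 and 2974 CPM. Macrophage markers were higher at 0 h in WT (median 2867 CPM) than in KO (2032 CPM), and at 12 h the medians were 1981 and 1578 CPM. Neutrophil markers had their highest medians at 6 h, 812 CPM in WT and 519 CPM in KO. The 9 B and plasma cell markers, of which 1 passed the filter on low counts and Mzb1 was at 0 in all libraries, summed to 67.1 to 144 CPM. Their medians were 77.7 CPM at 0 h and 123 CPM at 12 h in WT, and 81.6 and 143 CPM in KO. T and NK cell markers summed to at most 2.09 CPM and erythroid markers to at most 1.38 CPM. Structural and small RNA genes took 3.82 to 6.80% of counts in WT libraries, with 3.82 to 4.005% at 12 h, and 3.07 to 4.28% in KO libraries. These shares and marker sums move with genotype and time, and their part in the results was not tested. In such bulk samples fewer cells of a type and less RNA per cell cannot be told apart.

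Before challenge, 6 chaperone genes had the highest levels per kilobase of transcript among the genes described here. In WT cells at 0 h the ER lectin Calr (calreticulin) stood at 366 CPM per kilobase, the ER HSP90 protein Hsp90b1 at 288 and the disulfide isomerase Pdia4 at 285. Another isomerase, Pdia3, stood at 183, the HSP70 chaperone Hspa5 (BiP) at 146 and the lectin Canx (calnexin) at 144. Slc3a2, the heavy chain of amino acid transporters, and Atf4 followed at 79.2 and 74.2. At the low end, Asns (asparagine synthetase) was at 1.89, the ATF4-induced pseudokinase Trib3 at 0.852 and the serine synthesis enzyme Phgdh at 0.367. Chac1, a glutathione-degrading enzyme and ATF4 target, had 0 to 4 counts, was detected in 7 of 30 libraries and was not tested.

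Fitted changes are log2 fold changes with their SE, from edgeR's quasi-likelihood test over all 30 libraries. A gene was said to rise or fall where the p adjusted over all 12393 genes was at most 0.05. Of the chaperone and folding genes, 2 of 11 rose from 0 h in WT cells at 6 h (3.29% of all genes rose) and 9 h (5.57%), Dnajb9 and Pdia4 both times. The median log2 change of the 11 was 0.235 at 6 h and 0.295 at 9 h, against 0.009 and 0.015 over all genes tested, and 10 of the 11 had a fitted change above 0 at both times. In KO cells 3 of 11 rose at 6 h (Dnajb9, Sdf2l1 and Creld2; 3.21% of all genes rose) and 3 at 9 h (Dnajb9, Pdia4 and Creld2; 5.86%). The KO medians were 0.148 and 0.277, against 0.009 and -0.001 over all genes. At 3 h the medians were -0.06 in both genotypes and 0 of 11 passed in either, with 1.02% of all genes called in WT and 1.22% in KO. With DESeq2 0 of 36 passed in KO at 3 h, and fitted on the 6 libraries alone 1 did, Ppp1r15a. The shares of all genes called in those fits are not given here. All comparisons with 0 h within a genotype share their 0 h libraries.

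**Figure D1:**
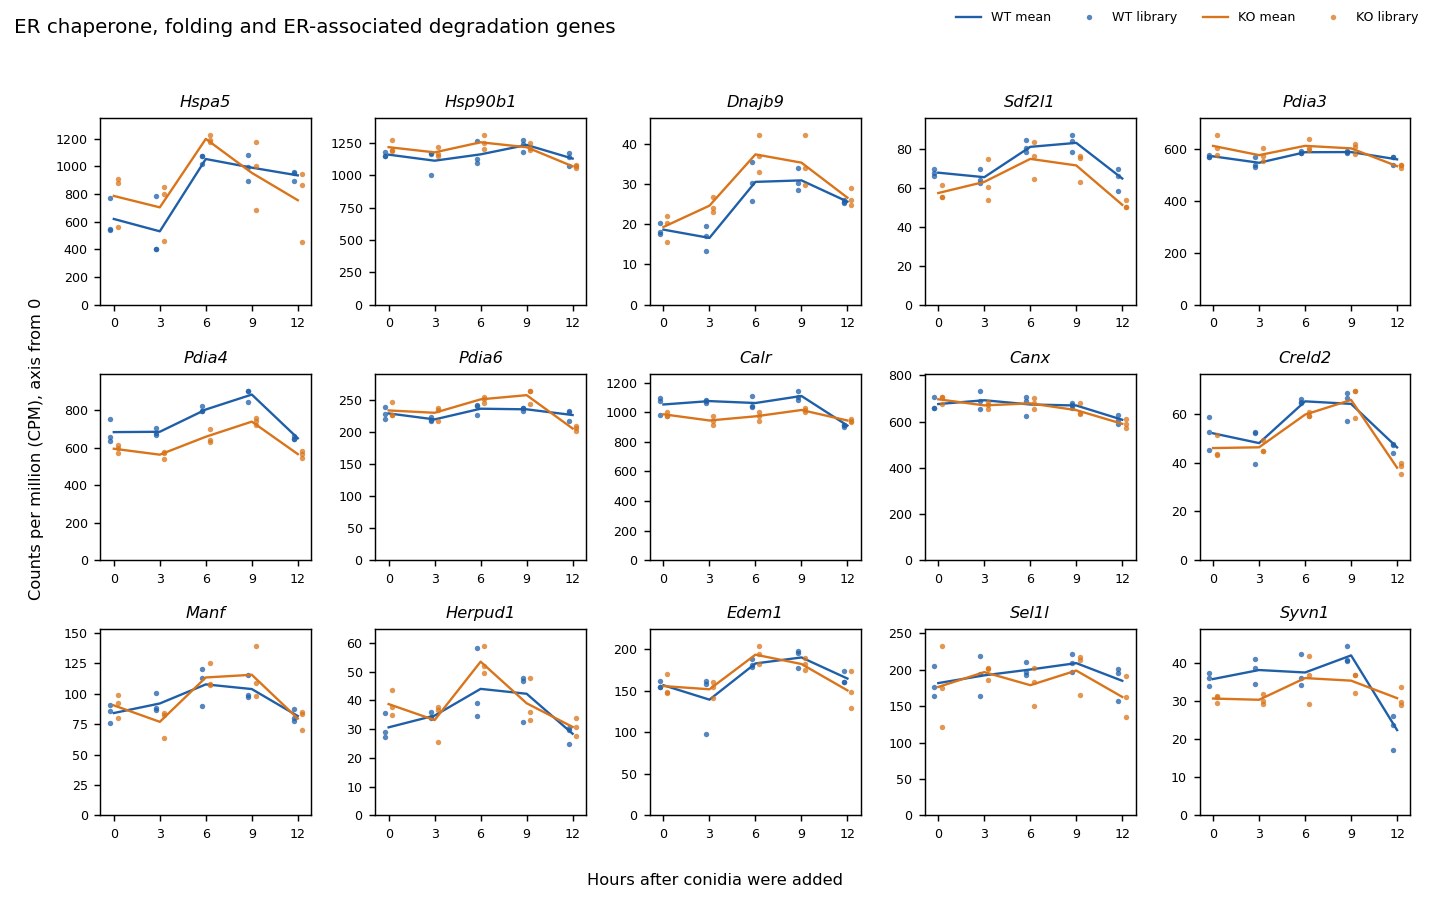
Levels in CPM by hour for the 11 chaperone and folding genes and the 4 degradation genes. Points are single libraries (3 per group), lines join group means, blue is WT and orange is KO, and each vertical axis starts at 0. Pdia4 rose from a WT mean of 684 CPM at 0 h to 885 CPM at 9 h and was back at 651 CPM at 12 h.

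Dnajb9 (ERdj4), a co-chaperone of BiP, stood at 17.6 to 20.3 CPM in the 3 WT libraries at 0 h and at 13.4 to 19.5 CPM at 3 h. It then stood at 25.9, 30.2 and 35.5 CPM at 6 h, at 28.6, 30.2 and 34.0 CPM at 9 h, and at 25.4 to 26.0 CPM at 12 h. Every WT library from 6 h on lay above every WT library at 0 h. The log2 change from 0 h was 0.71 ± 0.16 at 6 h (adjusted p = 0.00472), 0.73 ± 0.15 at 9 h (0.00172) and 0.46 ± 0.16 at 12 h (0.0399). In KO cells it went from 15.5, 20.3 and 22.1 CPM to 33.0, 36.9 and 42.1 CPM at 6 h, a log2 change of 0.93 ± 0.16 (adjusted p = 2.67e-04), and was 0.85 ± 0.15 higher at 9 h (3.07e-04). The 6 h call in WT was lost without WT 6 h replicate 3 (adjusted p = 0.0524). The 12 h call in WT was lost without any 1 of the 6 libraries other than WT 0 h replicate 3 (adjusted p 0.0792 to 0.123).

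Pdia4 stood at 639, 658 and 756 CPM in WT cells at 0 h, at 795, 796 and 824 CPM at 6 h and at 846, 903 and 907 CPM at 9 h. At 12 h the 3 libraries were at 646, 646 and 662.5 CPM, inside the range of the 0 h libraries. The log2 change from 0 h was 0.24 ± 0.05 at 6 h (adjusted p = 0.00386), 0.37 ± 0.05 at 9 h (7.73e-06) and -0.07 ± 0.05 at 12 h (0.377). KO cells had 573 to 613 CPM at 0 h and 721, 742 and 758 CPM at 9 h, a log2 change of 0.31 ± 0.05 (adjusted p = 7.85e-05), and 548 to 586 CPM at 12 h. Pdia4 thus rose by 9 h in both genotypes, while its 6 h change in KO (0.15 ± 0.05, 0.0907) did not pass.

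Creld2 and Sdf2l1 encode small ER proteins induced by unfolded protein, the second a partner of DNAJB family co-chaperones. Creld2 stood at 43.1, 43.7 and 51.6 CPM in KO cells at 0 h, at 59.2, 59.4 and 61.2 CPM at 6 h, at 58.6, 69.5 and 69.8 CPM at 9 h and at 35.3, 38.6 and 40.2 CPM at 12 h. Its log2 change was 0.38 ± 0.11 at 6 h (adjusted p = 0.0386) and 0.52 ± 0.11 at 9 h (0.00142), and the 12 h libraries lay below all at 0 h. In WT cells its change was 0.33 ± 0.11 at 6 h (adjusted p = 0.0695) and 0.31 ± 0.10 at 9 h (0.0611), neither past the threshold. Sdf2l1 stood at 55.2 to 61.5 CPM in KO at 0 h and at 64.6, 76.5 and 83.8 CPM at 6 h, 0.39 ± 0.11 higher (adjusted p = 0.0289), while in WT at 9 h it was 0.29 ± 0.10 higher (0.0630). The KO 6 h call of Creld2 was lost without any 1 of the 6 libraries other than KO 0 h replicate 1 (adjusted p 0.0807 to 0.164). That of Sdf2l1 was lost without KO 0 h replicate 1 or 3 or KO 6 h replicate 2 or 3 (0.0873 to 0.177).

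Hspa5, the main HSP70 chaperone of the ER and the usual marker of the unfolded protein response, had the widest spread of the chaperone genes. In WT cells it stood at 539.9, 547 and 771 CPM at 0 h, at 399.9, 403 and 787 CPM at 3 h, at 1014, 1071 and 1073 CPM at 6 h, at 891, 998 and 1081 CPM at 9 h and at 893, 952 and 957 CPM at 12 h. In KO cells it stood at 564, 882 and 911 CPM at 0 h, at 461, 799.9 and 849 CPM at 3 h, at 1177, 1192 and 1225 CPM at 6 h, at 682, 1001 and 1174 CPM at 9 h and at 456, 866 and 943 CPM at 12 h. The 6 h libraries lay close together in both genotypes and above every 0 h library of their genotype, while single libraries stood far from the other two at 0, 3, 9 or 12 h. The log2 change at 6 h was 0.77 ± 0.29 in WT (adjusted p = 0.145) and 0.61 ± 0.29 in KO (0.268), and Hspa5 did not pass in any comparison. Its coefficient of variation within groups was 23.9%, against 4.75% for Hsp90b1, 4.30% for Pdia4 and 2.89% for Calr, other abundant chaperone genes in the same libraries. Fitted on the 6 libraries of a comparison alone it passed at 12 h in WT (log2 0.60, adjusted p = 0.0391) and not at 6 h (0.0536) or 9 h (0.0783).

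The authors' deposited tables, which list genes with an adjusted p under 0.05 and a log2 change over 0.5 in size, do include Hspa5. In the authors' deposited table of each comparison its log2 change is 0.75 at 6 h in WT (adjusted p = 4.12e-07), 0.67 at 9 h (3.29e-05) and 0.59 at 12 h (1.60e-04). For KO cells at 6 h the authors' deposited table gives 0.60 (adjusted p = 0.00264). DESeq2 fitted here to all 30 libraries gave nearly the same WT changes, 0.76 at 6 h (adjusted p = 0.107), 0.68 at 9 h (0.133) and 0.61 at 12 h (0.143). The change is thus alike in size in both fits and differs in whether it passes.

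Between 9 and 12 h fitted levels of the chaperone and folding genes were lower in both genotypes. In KO cells 7 of 11 fell, Hsp90b1, Sdf2l1, Pdia3, Pdia4, Pdia6, Creld2 and Manf, and in WT cells 4 of 11 fell, Sdf2l1, Pdia4, Calr and Creld2. None of the 11 had a fitted change above 0 in either genotype, and the median log2 change was -0.34 in KO and -0.27 in WT, against 0.005 and -0.005 over all genes tested. Of all genes tested 1.84% fell in KO and 5.37% fell in WT. Of the 36 genes described here 8 fell and 0 rose in KO, where 2.65% of all genes rose and 4.49% were called in either direction. In WT 7 fell and 1 rose, where 5.16% of all genes rose and 10.5% were called. The 9 h libraries serve in this comparison and in that with 0 h, so a high 9 h level enters both. Of the chaperone and folding genes that fell in KO, Hsp90b1, Pdia6 and Creld2 hold the ERSE letters printed above. Sdf2l1, Pdia3 and Pdia4 have a window without them, and Manf has no window. In WT, Calr, Creld2 and the degradation gene Syvn1 fell and hold them, while Sdf2l1 and Pdia4 fell without them. Hspa5 and Canx hold them and did not pass in either genotype. Whether the element bears on these falls was not tested.

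Creld2 showed the largest of these falls in KO, from 58.6, 69.5 and 69.8 CPM to 35.3, 38.6 and 40.2 CPM, a log2 change of -0.79 ± 0.11 (adjusted p = 1.63e-05). In WT it went from 57.3, 66.8 and 68.8 CPM to 44.2, 47.3 and 47.7 CPM (-0.47 ± 0.10, adjusted p = 0.00306). Pdia4 fell by 0.44 on the log2 scale in WT (adjusted p = 5.40e-07) and by 0.39 in KO (7.785e-06). Pdia6, a disulfide isomerase, fell in KO from 244, 264 and 264 CPM to 201.5, 205 and 209 CPM (-0.33 ± 0.05, adjusted p = 4.81e-05) and measured 232 to 237 CPM and 216 to 232 CPM in WT (-0.06 ± 0.05, 0.539). Calr fell in WT from 1083, 1103 and 1148 CPM to 905, 914 and 914 CPM (-0.29 ± 0.04, adjusted p = 5.28e-06), and in KO it measured 1000 to 1032 CPM and 936 to 957 CPM (-0.10 ± 0.04, 0.132). Neither gene passed the test of a difference between genotypes over time (adjusted p = 0.182 for Pdia6 and 0.102 for Calr).

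Some of these 9 to 12 h calls were lost when 1 library was left out. In KO, Hsp90b1 (-0.19 ± 0.05, adjusted p = 0.0448) was lost without any 1 of the 6 libraries (0.0639 to 0.169), and Pdia3 (-0.17 ± 0.04, 0.0153) without KO 9 h replicate 1 or 3 (0.0683 and 0.0606). Manf, a secreted ER stress factor (-0.53 ± 0.13, 0.0132), was lost without KO 9 h replicate 3 or KO 12 h replicate 1 (0.141 and 0.0923), and in the table it lies across from Dcaf1 on the other strand. In WT, Sdf2l1 (-0.36 ± 0.10, 0.0175) was lost without WT 9 h replicate 2 or 3 or WT 12 h replicate 1 (0.0520, 0.0775 and 0.110). Pdia4 and Creld2 in both genotypes, Sdf2l1 and Pdia6 in KO and Calr in WT passed without each of the 6 libraries in turn. With only the libraries of the comparison fitted, 3 of the genes described here were called in KO in place of 8, and 7 in WT in place of 8. The share of all genes called in that fit is not given here. Whether the drop is particular to these genes cannot be told from these counts.

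Hsp90b1, Pdia3, Pdia6, Calr and Canx are grouped here because no change in them passed up to 9 h. Hspa5 and Manf also had no call up to 9 h, while the abundant Pdia4 rose. The fitted changes of the 5 grouped genes from 0 h at 6 and 9 h lay between -0.10 and 0.14 on the log2 scale in both genotypes. Small changes follow in part from this choice of genes, and Hspa5, outside the group, had larger fitted changes at 6 h. At 12 h Canx was lower than at 0 h in WT (607.6 CPM mean against 676 CPM, -0.15 ± 0.05, adjusted p = 0.0273) and in KO (590.0 CPM against 696 CPM, -0.24 ± 0.05, 8.15e-04). Calr was lower in WT, from 983, 1079 and 1099 CPM to 905, 914 and 914 CPM (-0.21 ± 0.04, adjusted p = 1.91e-04). In KO, Pdia3 (-0.20 ± 0.04, adjusted p = 0.00191), Hsp90b1 (-0.19 ± 0.05, 0.0176) and Pdia6 (-0.19 ± 0.05, 0.00865) were lower at 12 h. The call of Canx in WT was lost without WT 0 h replicate 2 or WT 12 h replicate 1 (adjusted p = 0.155 and 0.0958), that of Hsp90b1 in KO without KO 0 h replicate 2 or KO 12 h replicate 3 (0.0947 and 0.0589) and that of Pdia6 without KO 0 h replicate 2 (0.0937).

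Of the 4 degradation genes, 2 fell between 9 and 12 h in WT and 0 in KO, where 5.37% and 1.84% of all genes tested fell. Their highest mean was at 6 or 9 h in every case, and 0 of 4 passed against 0 h at 3, 6 or 9 h in either genotype. Their median log2 change from 9 to 12 h was -0.387 in WT and -0.286 in KO. Syvn1 (HRD1), the ubiquitin ligase of the pathway, stood at 34.0, 36.0 and 37.3 CPM in WT at 0 h, at 40.6, 40.9 and 44.5 CPM at 9 h and at 17.2, 23.8 and 26.2 CPM at 12 h. The 12 h libraries lay below all other WT libraries, and the change was -0.69 ± 0.13 from 0 h (adjusted p = 4.49e-04) and -0.92 ± 0.13 from 9 h (1.34e-05). In KO it measured 28.9 to 33.8 CPM at 12 h against 29.5 to 31.4 CPM at 0 h (0.01 ± 0.14, 0.979). The difference between genotypes in its course had the lowest adjusted p of the genes described here, 0.0969, which misses the threshold. Syvn1 lies across from Mrpl49 on the other strand, and no source used here gives the strand setting of the counting.

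Herpud1, a membrane partner of SYVN1, stood at 32.5, 46.6 and 47.7 CPM in WT at 9 h and at 25.0, 29.7 and 30.5 CPM at 12 h (-0.57 ± 0.18, adjusted p = 0.0408). That call was lost without any 1 of the 6 libraries other than WT 9 h replicate 1 (adjusted p 0.0633 to 0.159). In KO Herpud1 had 49.3, 52.1 and 58.9 CPM at 6 h, above the 35.0 to 43.5 CPM at 0 h (0.45 ± 0.18, 0.160). Edem1, which draws misfolded glycoproteins to degradation, had 177 to 198 CPM at 9 h in WT against 154 to 161 CPM at 0 h (0.28 ± 0.11, 0.135). Sel1l, the scaffold of the ligase, varied from 121 to 232 CPM among the KO libraries at 0 h and passed nowhere.

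Ppp1r15a (GADD34), which brings a phosphatase to eIF2alpha and so ends the block of translation, had the largest called change of the genes described here. In WT cells it stood at 14.3, 17.0 and 19.5 CPM at 0 h, at 10.1, 43.8 and 44.5 CPM at 3 h, at 52.2, 54.5 and 63.0 CPM at 6 h, at 64.7, 65.5 and 69.4 CPM at 9 h and at 67.3, 81.7 and 98.3 CPM at 12 h. In KO cells it stood at 12.5, 16.8 and 17.2 CPM at 0 h, at 41.0, 45.3 and 49.0 CPM at 3 h, at 11.7, 12.8 and 46.8 CPM at 6 h, at 17.7, 62.4 and 70.5 CPM at 9 h and at 86.1, 97.2 and 99.5 CPM at 12 h. All libraries at 12 h lay above all at 0 h, and 4 libraries at 3, 6 or 9 h (WT 3 h replicate 1, KO 6 h replicates 2 and 3 and KO 9 h replicate 2) were near the 0 h level beside higher ones. The log2 change at 12 h was 2.27 ± 0.46 in WT (adjusted p = 0.00121) and 2.59 ± 0.47 in KO (4.99e-04).

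At the earlier times Ppp1r15a was 1.74 ± 0.48 higher at 6 h (adjusted p = 0.0330) and 1.97 ± 0.47 higher at 9 h (0.00705) in WT, and 1.68 ± 0.49 higher at 9 h in KO (0.0314). At 3 h it was 0.91 ± 0.52 in WT (0.622) and 1.52 ± 0.50 in KO (0.206). The authors' deposited table of KO at 3 h does list it, with a log2 change of 1.525 (adjusted p = 4.20e-05). The WT 6 h call was lost without any 1 of its 6 libraries (adjusted p 0.0605 to 0.118), and the KO 9 h call without any 1 other than KO 9 h replicate 2 (0.0787 to 0.152). Its coefficient of variation within groups was 38.7%.

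Ppp1r15b, the constitutive partner of the same phosphatase, measured 143 to 144 CPM at 0 h, 129.6 to 143 CPM at 9 h and 159 to 165 CPM at 12 h in WT. It was 0.18 ± 0.06 higher at 12 h than at 0 h (adjusted p = 0.0492) and 0.24 ± 0.06 higher than at 9 h (0.0126). The first call was lost without any 1 of the 6 libraries (0.0836 to 0.159) and the second without WT 9 h replicate 3 or WT 12 h replicate 1 (0.103 and 0.0568). In KO at 12 h Ppp1r15b was at -0.03 ± 0.06 from 0 h.

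Of the ER sensors, Eif2ak3 (PERK) fell from 34.5, 41.5 and 43.6 CPM at 9 h to 25.4, 25.5 and 27.0 CPM at 12 h in WT (-0.62 ± 0.12, adjusted p = 9.78e-04). In KO it went from 32.6, 33.7 and 40.4 CPM to 23.5, 24.0 and 30.3 CPM (-0.44 ± 0.13, 0.0457), a call lost without any 1 of the 6 libraries other than KO 12 h replicate 2 (adjusted p 0.0514 to 0.279). The KO level at 12 h was also below that at 0 h (-0.41 ± 0.13, 0.0341), a call lost without KO 0 h replicate 1 or 2 or KO 12 h replicate 1 or 3 (0.0908 to 0.154). Ern1 and Atf6 stayed within 47.1 to 70.4 CPM and 47.9 to 71.8 CPM over all 30 libraries and passed in none of the comparisons. Xbp1, the splicing target of IRE1, stood at 86.8, 126 and 131.5 CPM in WT at 0 h and at 68.7 to 70.2 CPM at 6 h (-0.73 ± 0.21, adjusted p = 0.0339). That fall was lost without any 1 of the 6 libraries other than WT 0 h replicate 2 (0.0941 to 0.142), and KO cells, at 75.6 to 86.9 CPM at 0 h, had 57.7 to 103 CPM at 6 h (0.08 ± 0.21, 0.898).

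**Figure D2:**
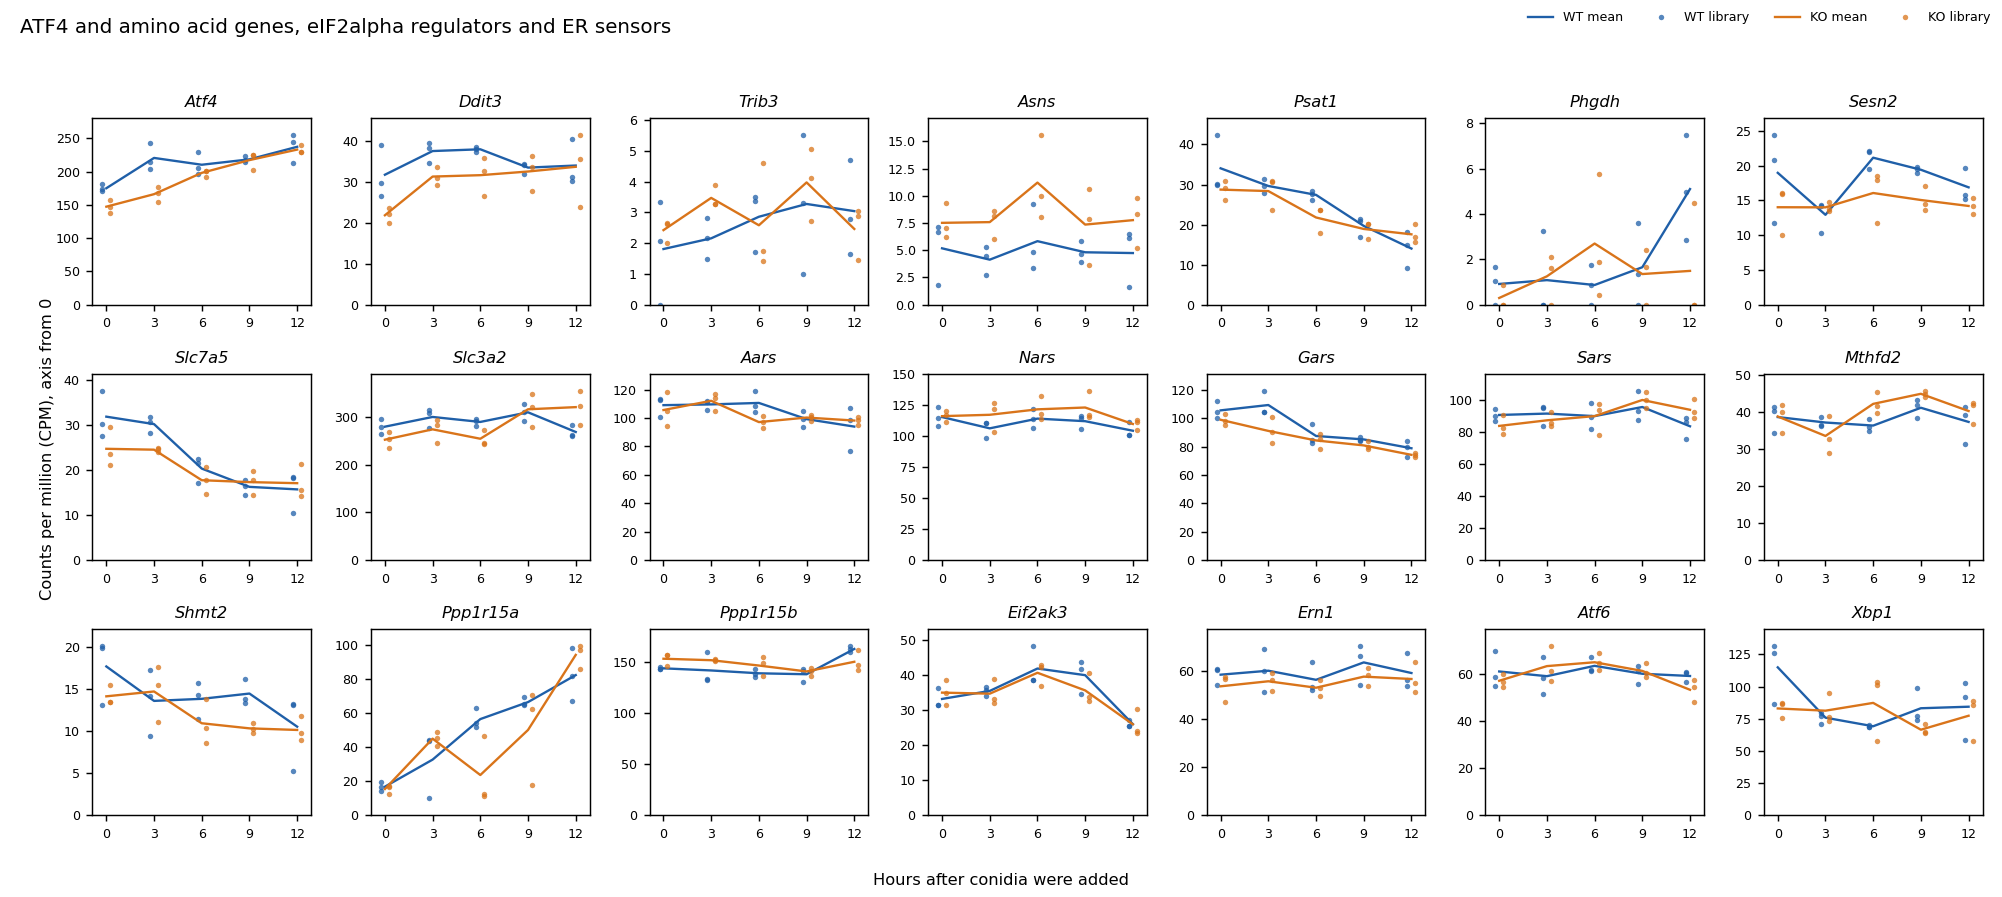
Levels in CPM by hour for the 15 tested ATF4 and amino acid genes and the 6 genes of eIF2alpha phosphorylation and ER sensing. Points are single libraries (3 per group), lines join group means, blue is WT and orange is KO, and each vertical axis starts at 0. By 12 h Atf4 was higher and Psat1 and Gars lower than at 0 h in both genotypes, and Ppp1r15a had 1 library far below the others in WT at 3 h and in KO at 9 h, and 2 low libraries in KO at 6 h.

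Atf4, the transcription factor of the integrated stress response, rose in both genotypes. In WT cells it stood at 170.5, 173 and 181 CPM at 0 h, at 204, 214 and 243 CPM at 3 h, and at 212, 244 and 255 CPM at 12 h. In KO cells it stood at 138, 147 and 157 CPM at 0 h, at 154.5, 167 and 176 CPM at 3 h, at 192, 201 and 201 CPM at 6 h and at 229, 230 and 240 CPM at 12 h. Every WT library from 3 h on and every KO library from 6 h on lay above all 0 h libraries of its genotype. The log2 change was 0.33 ± 0.07 at 3 h (adjusted p = 0.0150) and 0.44 ± 0.07 at 12 h (5.77e-05) in WT, and 0.17 ± 0.07 at 3 h (0.422), 0.43 ± 0.07 at 6 h (3.85e-04) and 0.66 ± 0.07 at 12 h (1.41e-07) in KO. The WT 3 h call was lost without WT 0 h replicate 1 or 3 or WT 3 h replicate 3 (adjusted p 0.0702 to 0.165). The WT 6 h call (0.27 ± 0.07, 0.0256) was lost without WT 0 h replicate 1 or 3 or WT 6 h replicate 1 or 2 (0.0507 to 0.173).

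Calls among the ATF4 and amino acid genes went both ways. Of the 15 tested, Atf4 included, 1 rose and 4 fell in WT at 12 h and 3 rose and 2 fell in KO, with median log2 changes of -0.11 and 0.03. Of all genes tested 9.64% rose and 8.47% fell in WT, and 8.13% rose and 6.58% fell in KO. Psat1 (serine synthesis) and Gars (tRNA charging) fell in both genotypes. Slc7a5 (amino acid uptake) and Shmt2 (serine and one-carbon metabolism) were called in WT alone. Other genes of these processes, Phgdh, Mthfd2, Aars, Nars and Sars, were not called at 12 h, and Slc3a2 rose in KO. Trib3 (0 to 5.52 CPM), Asns (1.64 to 15.6 CPM) and Phgdh (0 to 7.47 CPM) were low over the 30 libraries, and small changes in them were not detectable at this depth.

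Psat1, the aminotransferase of serine synthesis, stood at 29.8, 30.0 and 42.3 CPM in WT at 0 h, at 26.2 to 28.4 CPM at 6 h, at 16.9, 20.8 and 21.3 CPM at 9 h and at 9.13, 14.9 and 18.0 CPM at 12 h. Its log2 change was -0.79 ± 0.18 at 9 h (adjusted p = 0.00337) and -1.31 ± 0.19 at 12 h (7.68e-06). In KO it went from 26.2, 29.0 and 30.9 CPM to 15.6, 17.0 and 20.1 CPM at 12 h (-0.72 ± 0.19, 0.00931). That KO call was lost without KO 12 h replicate 2 (0.0538), and the KO call at 9 h (-0.60 ± 0.18, 0.0344) without any 1 of its 6 libraries (0.0504 to 0.154).

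Slc7a5 (LAT1), the light chain of a transporter of large neutral amino acids, stood at 27.7, 30.4 and 37.8 CPM in WT at 0 h, at 17.1 to 22.4 CPM at 6 h, at 14.6 to 17.8 CPM at 9 h and at 10.5, 18.3 and 18.4 CPM at 12 h. The change was -0.65 ± 0.19 at 6 h (adjusted p = 0.0390), -0.97 ± 0.19 at 9 h (7.58e-04) and -1.02 ± 0.19 at 12 h (2.53e-04). The 6 h call was lost without any 1 of the 6 libraries other than WT 0 h replicate 2 (0.0641 to 0.199). In KO the changes were -0.49 ± 0.20, -0.52 ± 0.20 and -0.55 ± 0.20 (adjusted p = 0.173, 0.0900 and 0.0628), none past the threshold. Its partner Slc3a2 (CD98 heavy chain) rose in KO from 235, 254 and 268 CPM to 278, 322 and 348 CPM at 9 h (0.33 ± 0.08, 0.0103) and 284, 323 and 355 CPM at 12 h (0.34 ± 0.08, 0.00511), while in WT it measured 265 to 295 CPM at 0 h, 291 to 328 CPM at 9 h and 259 to 283 CPM at 12 h. The WT change at 9 h was 0.15 ± 0.08 (adjusted p = 0.317), and the difference between genotypes in the 12 h change did not pass (0.40 ± 0.12, adjusted p = 0.118). The Slc3a2 call at 9 h was lost without KO 0 h replicate 2 or KO 9 h replicate 1 (0.0626 and 0.0811) and that at 12 h without KO 12 h replicate 1 (0.0539).

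Gars, which charges glycine tRNA, was the 1 synthetase of the 4 described here that changed. It stood at 99.99, 105 and 112 CPM in WT at 0 h, at 83.7, 84.5 and 87.2 CPM at 9 h and at 72.7, 80.0 and 83.9 CPM at 12 h, a log2 change of -0.42 ± 0.08 at 12 h (adjusted p = 2.69e-04). In KO it went from 95.6, 98.1 and 103 CPM to 72.9, 74.0 and 75.8 CPM (-0.41 ± 0.08, 5.31e-04). The call at 6 h in WT (-0.27 ± 0.08, 0.0390) was lost without WT 0 h replicate 1 or 2 or WT 6 h replicate 1 or 2 (0.0820 to 0.183), and that at 9 h (-0.31 ± 0.08, 0.00820) without WT 0 h replicate 2 (0.0584). The KO call at 9 h (-0.29 ± 0.08, 0.0163) was lost without KO 0 h replicate 3 or KO 9 h replicate 1 or 3 (0.0507 to 0.0873). Aars, Nars and Sars, for alanine, asparagine and serine, passed in no comparison, with changes from 0 h between -0.22 and 0.25.

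Shmt2, the mitochondrial serine hydroxymethyltransferase, was lower at 12 h in WT (13.1, 19.9 and 20.1 CPM at 0 h against 5.26, 13.1 and 13.3 CPM, -0.74 ± 0.26, adjusted p = 0.0459), and the groups overlapped in level. The call was lost without WT 0 h replicate 2 or 3 or WT 12 h replicate 2 (0.146 to 0.265), and the change was -0.42 without that last library. Mthfd2, which acts in the same pathway, stayed within 28.9 to 45.8 CPM and passed nowhere. Ddit3 (CHOP), a pro-apoptotic transcription factor, rose in KO from 19.9, 22.0 and 23.6 CPM at 0 h to 27.7, 33.7 and 36.3 CPM at 9 h (0.58 ± 0.17, 0.0302) and 23.9, 35.7 and 41.4 CPM at 12 h (0.60 ± 0.17, 0.0185). The 9 h call was lost without KO 0 h replicate 1 or 3 or KO 9 h replicate 1 or 2 (0.0694 to 0.129) and the 12 h call without KO 0 h replicate 3 or KO 12 h replicate 1 or 3 (0.0640 to 0.154). In WT, with 26.6 to 39.0 CPM at 0 h, it measured 0.11 ± 0.16 at 12 h. Ddit3 lies across from Mars on the other strand. Sesn2, a leucine sensor and ATF4 target, passed against 0 h at no time.

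**Figure D3:**
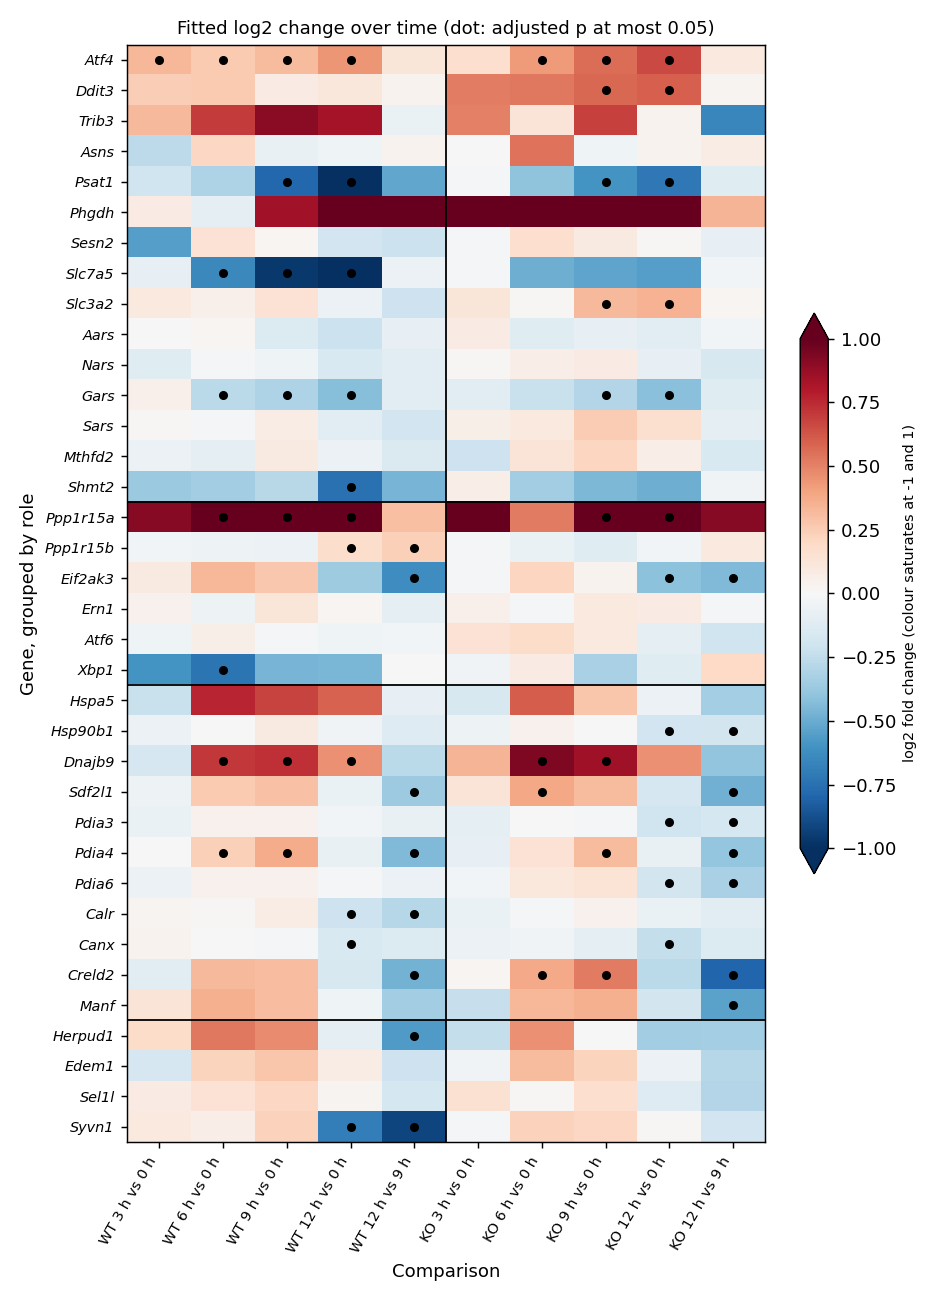
Fitted log2 change of the 36 tested genes (vertical axis, grouped by role) in 10 comparisons over time (horizontal axis), WT left and KO right. Red is higher and blue lower than the reference hour, colour saturates at 1 on the log2 scale, and dots mark an adjusted p of at most 0.05; from 9 to 12 h, 7 chaperone genes have a dot in KO and 4 in WT, all lower.

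Over the whole set of 36, calls against 0 h in WT numbered 1 higher and 0 lower at 3 h (1.02% of all genes called), 4 and 3 at 6 h (5.96%; 3.29% higher and 2.67% lower), 4 and 3 at 9 h (10.4%; 5.57% and 4.81%), and 4 and 7 at 12 h (18.1%; 9.64% and 8.47%). In KO they numbered 0 at 3 h (1.22%; 1.03% higher), 4 higher and 0 lower at 6 h (5.91%; 3.21% and 2.7%), 7 and 2 at 9 h (10.9%; 5.86% and 5.0%), and 4 and 7 at 12 h (14.7%; 8.13% and 6.58%). As shares of the 36 WT cells had 19.4% called at both 6 and 9 h, then 30.6% at 12 h, and KO cells had 11.1%, 25.0% and 30.6%. Median log2 changes of the 36 against 0 h stayed between -0.076 and 0.126.

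The share of the 36 genes called in KO against WT was 5.56% at each of 0, 6 and 9 h, close to that of all genes. At 3 h it was 13.9% (6.92% of all genes) and at 12 h 2.78% (1.9%), the latter 1 gene. Against WT, KO had 0 higher and 2 lower at 0 h (Atf4 and Pdia4; 5.02% of all genes called, 2.26% higher and 2.76% lower), 1 higher and 4 lower at 3 h (Dnajb9 higher; Atf4, Gars, Pdia4 and Calr lower; 6.92%, 3.02% and 3.9%). It had 2 lower at 6 h (Pdia4 and Calr; 5.78%, 2.42% and 3.36%), the same 2 lower at 9 h (5.06%, 2.15% and 2.91%) and 1 lower at 12 h (Pdia4; 1.9%, 1.23% and 0.678%). For the mean over the 5 times 2 were higher and 7 lower of 36, or 25.0%, with 24.9% of all genes called. That share is close to the background of all genes.

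Pdia4 was lower in KO at every time. All 3 KO libraries lay below all 3 WT libraries at 0 h (573 to 613 against 639 to 756 CPM), at 3 h (541 to 578 against 670 to 709 CPM), at 6 h (633 to 701 against 795 to 824 CPM), at 9 h (721 to 758 against 846 to 907 CPM) and at 12 h (548 to 586 against 646 to 663 CPM). The log2 difference ran from -0.29 to -0.20, with a mean over times of -0.25 ± 0.02 (adjusted p = 3.50e-09). The call at 0 h was lost without WT 0 h replicate 2 or KO 0 h replicate 3 (0.191 and 0.0826) and that at 12 h without any 1 of the 6 libraries other than KO 12 h replicate 1 (0.0655 to 0.145). Calr was lower in KO over the 5 times by a smaller amount (-0.10 ± 0.02, 9.84e-05) and at 3 h (918, 944 and 974 against 1067, 1078 and 1085 CPM, -0.19 ± 0.04, 0.00178). Its calls at 6 h (-0.13 ± 0.04, 0.0438) and 9 h (-0.13 ± 0.04, 0.0459) were lost without any 1 of the 6 libraries at 9 h and any 1 other than KO 6 h replicate 1 at 6 h (adjusted p up to 0.227). At 12 h the KO libraries, at 936 to 957 CPM, lay above the WT ones, at 905 to 914 CPM (0.05 ± 0.04, 0.664).

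**Figure D4:**
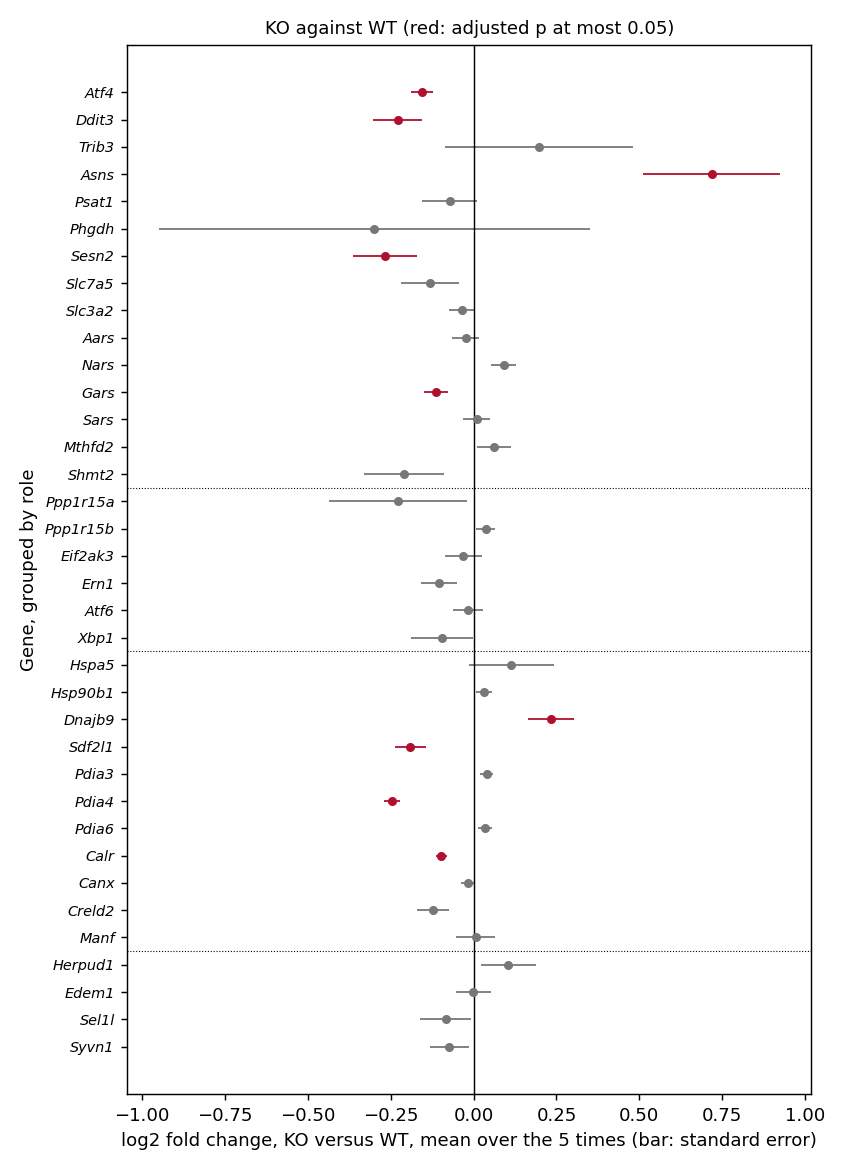
KO against WT as the mean over the 5 times, log2 fold change (horizontal axis) for the 36 tested genes (vertical axis, grouped by role). Points are fitted values, bars are 1 standard error, red marks an adjusted p of at most 0.05; Pdia4, at -0.25, has the smallest adjusted p, and Asns, at 0.72, the largest called difference.

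Atf4 was lower in KO early, by -0.25 ± 0.07 at 0 h (adjusted p = 0.0483) and -0.41 ± 0.07 at 3 h (4.28e-04), and was within 0.03 of WT at 9 and 12 h. The 0 h call was lost without any 1 of the 6 libraries other than KO 0 h replicate 2 (0.0749 to 0.195). Over the 5 times Atf4 (-0.16 ± 0.03, 7.11e-04), Ddit3 (-0.23 ± 0.07, 0.0242), Sesn2 (-0.27 ± 0.10, 0.0431), Gars (-0.11 ± 0.04, 0.0209) and Sdf2l1 (-0.19 ± 0.05, 0.00341) were lower in KO. Dnajb9 (0.23 ± 0.07, 0.0141) and Asns (0.72 ± 0.21, 0.0113) were higher. Asns had 1.64 to 9.30 CPM in WT libraries and 3.62 to 15.6 CPM in KO libraries. The call of Sesn2 was lost in 17 of the 30 fits that left out 1 library each (adjusted p up to 0.0885) and that of Ddit3 without WT 0 h replicate 2 (0.0511). At 3 h the calls of Dnajb9 (0.57 ± 0.17, 0.0330) and Gars (-0.26 ± 0.08, 0.0430) were lost without any 1 library other than WT 3 h replicate 2 for Dnajb9 (0.0565 to 0.177) and without WT 3 h replicate 2 or 3 or KO 3 h replicate 1 or 3 for Gars (0.0549 to 0.232).

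Whether the course over time differed between genotypes was tested directly. By edgeR's quasi-likelihood F test 0 of 36 passed, against 110 genes (0.888%) of all tested, and DESeq2 also called 0. At an unadjusted p under 0.05 there were 5 genes, Syvn1, Calr, Atf4, Slc3a2 and Pdia6. Their adjusted p-values were 0.0969, 0.102, 0.108, 0.174 and 0.182. Without WT 0 h replicate 1 there was 1 call, Calr, and the share of all genes called in that fit is not given here. Taken singly, the differences of the change from 0 h at 3, 6, 9 and 12 h gave 0 of 36 each, with 0.0%, 0.0%, 0.105% and 0.726% of all genes called. A call in 1 genotype and not in the other is therefore no measured difference between them.

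Other genes of the integrated stress response, from a list of 44 that holds none of those above, were also called. Of 37 tested, 4 rose at 3 h in each genotype: Gdf15, Atf3, Cebpb and Slc7a11, where 0.88% of all genes rose in WT and 1.03% in KO. At 12 h 7 rose and 9 fell in WT (9.64% and 8.47% of all genes), and 5 rose and 5 fell in KO (8.13% and 6.58%). Gdf15, a secreted stress cytokine, went from 1.98 to 25.2 CPM in WT (3.66 ± 0.35, adjusted p = 8.82e-09) and from 0.962 to 32.1 CPM in KO (5.13 ± 0.41, 2.97e-10). The transcription factor Atf3 went from 267 to 475 CPM in WT (0.83 ± 0.07, 3.61e-10) and from 235 to 482 CPM in KO (1.04 ± 0.07, 4.52e-12). Slc7a11, the cystine transporter, was 0.71 ± 0.03 higher in WT and 0.485 ± 0.03 higher in KO at 12 h. Its 12 h change was smaller in KO, the 1 call of 37 for that difference (0.726% of all genes called). In the test of the course over all times 0 of the 37 passed. Slc7a11 was higher in KO than in WT at every time, from 0.56 ± 0.03 at 0 h (adjusted p = 6.20e-11) to 0.33 ± 0.03 at 12 h (1.03e-06). Among those that fell were the isoleucine synthetase Iars in both genotypes (-0.60 ± 0.11 in WT, 1.93e-04, and -0.57 ± 0.11 in KO, 5.24e-04) and the valine synthetase Vars in WT (-0.61 ± 0.14, 0.00331).

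Other genes of the unfolded protein response and ER numbered 51 tested. At 3 h 0 were called in either genotype (1.02% of all genes in WT and 1.22% in KO). At 6 h 0 were called in WT (5.96%), and 1 rose and 1 fell in KO (3.21% and 2.7%). Their median log2 change from 0 h was 0.059 in WT and 0.022 in KO at 6 h, against 0.009 over all genes in each. At 9 h it was 0.059 and -0.004, against 0.015 and -0.001. In WT 4 rose and 0 fell at 9 h (5.57% and 4.81% of all genes), and 2 rose and 11 fell at 12 h (9.64% and 8.47%). In KO 5 rose and 1 fell at 9 h (5.86% and 5.0%), and 1 rose and 15 fell at 12 h (8.13% and 6.58%). The 9 h calls were 7.84% of the 51 in WT, where 10.4% of all genes were called, and 11.8% in KO, where 10.9% were called. Between 9 and 12 h 1 rose and 10 fell in WT (5.16% and 5.37% of all genes), and 0 rose and 11 fell in KO (2.65% and 1.84%). Sec24d, a coat protein of vesicles leaving the ER, was 0.66 ± 0.15 higher at 9 h than at 0 h in WT (adjusted p = 0.00325) and fell by 0.75 between 9 and 12 h, with group means of 28.3, 44.5 and 26.4 CPM. The channel subunit Sec61a1 fell between 9 and 12 h from 128 to 95.7 CPM in WT (-0.42 ± 0.07, 2.71e-04) and from 108 to 87.3 CPM in KO (-0.31 ± 0.08, 0.0169). Hyou1, an ER chaperone of the HSP110 family, fell by 0.48 in WT (0.00640) and by 0.43 in KO (0.0319) over the same hours. Ero1l, the oxidase that recharges disulfide isomerases, rose over these hours in WT (0.65 ± 0.09, 2.23e-05) and was not called in KO. In KO it was already 0.58 ± 0.10 higher at 9 h than at 0 h (1.39e-04). It was also higher in KO than in WT at 3 h (0.33 ± 0.10, 0.0437) and 9 h (0.57 ± 0.10, 3.14e-04). At 12 h it was 0.89 ± 0.10 higher than at 0 h in WT (1.25e-07) and 0.88 ± 0.10 higher in KO (1.46e-07). In the test of a difference between genotypes in the course over time, 1 of the 51 passed, Ssr3 (0.888% of all genes called).

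Of the 37 genes, 6 appear in any of the authors' 13 deposited tables, in 16 entries: Ppp1r15a, Hspa5, Atf4, Psat1, Slc7a5 and Xbp1. The authors' deposited tables of KO against WT at the 5 times list none of them. Pdia4, lower in KO at every time in the fit made here, differed by less than the log2 size of 0.5 that every gene in those tables exceeds.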

How the data were processed

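Poly(A) RNA of 30 libraries was sequenced with a stranded kit, per the labels' protocols. The submitters' processing notes name Trimmomatic 0.35, HISAT2, StringTie, DESeq2 and the GRCm38 build; their order, the strand setting and the annotation release are given in no source used here. The deposited table holds the authors' whole-number counts per Ensembl gene, not normalized. The authors' 13 comparison tables give log2 fold changes, p-values and adjusted p-values, and normalized counts as a signal per library, per the file headers; they hold only genes that passed the authors' limits.

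Counts were tested with edgeR 4.0.16 (R 4.3.3): genes were kept at a minimum count of 10 (12393 of 54532), scaled by TMM and fitted by robust quasi-likelihood over 10 groups of 3, with p-values adjusted by Benjamini-Hochberg over all genes tested. Library totals had a median of 2492886 counts and the biological coefficient of variation was 13.7%, which limits precision for low genes. Symbols came from GENCODE M21, where 54495 identifiers were found and 37 were not. No other per-sample column was left unused (0). Within groups the 30 pairs of libraries differed beyond counting noise (chi-square per gene 2.469 to 8.227), so none was counted as a repeat. Ddit3 has 2 identifiers, and the one with few counts was not used.

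Every gene of the set could be named; of other pathway genes, up to 5 per direction and comparison with an adjusted p of at most 0.05 and at least 5 CPM in the higher group. Members and lists were chosen with earlier results of these data known. The test was checked on simulated data. Not every matched promoter sequence is reported here. Alternatives were no filter, DESeq2 1.42.0, its size factors in edgeR, protein-coding genes only, a replicate block, only the libraries compared, and each library left out in turn.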

Additional observations from a re-analysis of the deposited data

How the results depend on the processing

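With smaller relative changes left out, counts of the 36 tested genes called in each comparison changed as follows. Without a low-count filter they were 0 in WT at 3 h against 0 h (1 as reported), 1 at 6 h (7) and 7 at 12 h (11), and in KO 2 at 6 h (4), 5 at 9 h (9) and 7 at 12 h (11), with 5 for KO at 12 against 9 h (8). For KO against WT they were then 0, 3, 1, 1 and 0 at 0, 3, 6, 9 and 12 h (2, 5, 2, 2 and 1). DESeq2 gave 4 in WT at 6 h, 7 at 12 h and 2 in KO at 6 h, and 1, 3, 1, 1 and 0 for KO against WT. With only the libraries compared there were 0 in WT at 3 h and 3 at 6 h, 1, 2, 4 and 7 in KO at 3, 6, 9 and 12 h, 3 for KO at 12 against 9 h, and 0, 3, 1 and 0 for KO against WT at 0, 3, 9 and 12 h. DESeq2 size factors in edgeR gave 1 for KO against WT at 6 h and 1 at 9 h, and protein-coding genes only gave 1 at 9 h. The share of all genes called under each alternative is not given here. These counts therefore do not tell whether a change is particular to these genes or shared by all genes.

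Leaving out 1 library at a time, counts ran from 0 to 1, 2 to 6, 7 to 9 and 8 to 9 in WT at 3, 6, 9 and 12 h, and 0 to 0, 2 to 3, 5 to 9 and 8 to 11 in KO. They ran from 5 to 8 in WT and 4 to 7 in KO for 12 against 9 h. For KO against WT they ran from 0 to 2, 3 to 4, 1 to 3, 1 to 1 and 0 to 1 at 0, 3, 6, 9 and 12 h, 8 to 10 for the mean over times and 0 to 1 for the difference in course. Shares of all genes called in these fits are likewise not given here.

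With the replicate number as a block, and smaller relative changes again left out, counts for KO against WT were 1 at 0 h, 1 at 6 h and 1 at 9 h. Shares of all genes called under the block are not given here either. Deviations of same-numbered libraries correlated between -0.0736 and 0.0956 (135 pairs) and of others between -0.103 and 0.102 (270), so no pairing by number was seen. Whether same-numbered libraries share a mouse or culture is not known from the labels. Of 87 single calls 78 held under the block, 61 with DESeq2, 82 with its size factors, 53 without a filter and 83 with protein-coding genes only. With only the libraries compared 46 of 78 held, and with 1 library left out 577 fits kept the call and 161 lost it; none of the 87 changed sign under any alternative run. The cause of these changes was not tested. Depth limits Trib3, Asns, Phgdh and Chac1.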
